A study of Homo sapiens with 4 samples.

Results

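The genes described here encode 10 receptors that guide natural killer (NK) cells to tissues: CMKLR1, CCR4, CCR6, CCR7, CXCR3, CXCR4, CXCR6, CX3CR1, S1PR1 and S1PR5. They were chosen by gene symbol, and all 10 were found by Ensembl identifier among the 20323 genes of the deposited table. RNA was sequenced from NK-92, an established human NK cell line grown in suspension with recombinant interleukin 2 at 100 IU/ml. NK scramble cells had been transduced with a lentivirus that carried a control hairpin, and NK shADAR1 cells with one that carried a hairpin against ADAR1, the enzyme that edits adenosine to inosine in double-stranded RNA. Both groups therefore shared lentiviral transduction and the culture conditions, and each had 2 libraries, which the submitters call independent biological replicates. The paper names the hairpin of this experiment shADAR1-2, whereas the labels carry the numbers 1 and 2 after the hairpin name, taken here as replicate numbers. The study also has a hairpin called shADAR1-1, so whether the knockdown libraries carry 1 hairpin or 2 cannot be settled from these names, and a difference between them cannot be told apart from one between hairpins. Where a pair of values is given for the control or the knockdown libraries, replicate 1 comes first.

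Chemokine receptors are heptahelical receptors coupled to inhibitory G proteins. They turn a gradient of a small secreted chemokine into directed movement. CMKLR1 does the same for chemerin, a protein released by adipose tissue, skin and other tissues. S1PR1 and S1PR5 sense sphingosine 1-phosphate (S1P), a lipid that is abundant in blood and lymph and draws lymphocytes out of the organs in which they mature. NK cells are known to leave the bone marrow through S1PR5, to stay in it through CXCR4, to enter lymph nodes through CCR7 and to reach inflamed tissue and tumors through CXCR3, CX3CR1 and CMKLR1.

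The hairpin named shADAR1-2 is shown because the paper names it for this experiment, with the whole targeted stretch in capitals. It occurs in 3 of 23 annotated ADAR transcripts (GENCODE release 29) and in 0 of the 40 transcripts of the 10 receptors.
shADAR1-2: GCCGTGTCCCGAGGAAGTGCA

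Promoters in the RefSeq table (GRCh38.p14), each from 250 bases before to 50 bases after a start site, were found for 9 of the 10 receptors, 17 promoters in all. The gamma-activated site TTCNNNGAA, to which STAT factors bind, is shown because the cells were grown in interleukin 2, which signals through STAT5. Read on both strands, it occurs in 4 of the 17 promoters and in 7.66% of 35116 promoters of the same length. The genes that hold it are CMKLR1, CCR6 and CX3CR1. In the windows below, capitals mark the motif and the rest is flanking sequence.
CMKLR1, chr12:108320823-108320852, minus strand: tggactgtgtTTCTTTGAAtatggctgtgc
CCR6, chr6:167111596-167111625, plus strand: aatttgtaatTTCCAAGAAgaatcaagaaa
CX3CR1, chr3:39280516-39280545, minus strand: catatcactcTTCTAAGAAtttcattaaaa
The T-box core TCACAC, bound by the NK cell factor T-bet, was in 2 of the 17 promoters, those of CCR6 and CMKLR1, and in 12% of all. The box CCACCC, bound by KLF factors, was in 12 of the 17, in 8 genes, and in 34.3% of all. Factor KLF2 of that family is known to drive S1PR1, and the box in that gene is shown for this reason. The 3 motifs share no base with each other in these promoters, and a match describes letters only.
S1PR1, chr1:101236864-101236893, plus strand: ttcctgaagaaaCCACCCagccttggcgcg

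Depth was even, with 37881704 to 39960491 estimated counts per library. Apart from these libraries, the paper reports that qRT-PCR and western blotting showed lower ADAR1 in NK shADAR1 cells. In the libraries ADAR, the targeted gene, had 655 and 682 normalized CPM (counts scaled to a common library size) in the controls. It had 575 and 482 CPM in the knockdown. Its log2 fold change was -0.34 (standard error 0.20) and did not pass edgeR's quasi-likelihood test (adjusted p = 1.00). Both knockdown libraries were below both controls, and the difference lay between -0.47 and -0.22 when 1 library was left out. A fit without 1 library has a single library in that group and takes its spread from the pair of the other group, assuming that the lone library varies alike. All 10 NK cell markers were detected, led by NKG7, GNLY and GZMB. Among markers of other cells, CD8A, CD8B and MS4A1 had 0 counts in every library. The T cell gene CD3E was abundant, at 396 to 554 FPKM (fragments scaled by transcript length and library size), while CD3D reached no more than 0.958 FPKM.

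NK-92 cells expressed 3 of the receptors at a high or middling level, 5 at a low level and 2 at or near 0. Levels between genes are compared in FPKM, which corrects for transcript length. CXCR4, the receptor for CXCL12, was the most abundant of the 10 with 58.5 and 59.9 FPKM in the control libraries and 34.5 and 64.1 FPKM in the knockdown libraries. CXCR3, the receptor for the interferon-induced chemokines CXCL9, CXCL10 and CXCL11, followed with 34.5 and 40.7 FPKM in the control libraries and 80.5 and 33.9 FPKM in the knockdown libraries. The ranges of these 2 genes overlapped, and CXCR4 was above CXCR3 in 3 of 4 libraries. By mean FPKM, 91.6% of listed genes lay below CXCR4 and 90.2% below CXCR3. S1PR1 came next, at 9.24 to 13.1 FPKM, and its range overlapped with neither CXCR3 above it nor CCR7 below it.

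**Figure D1:**
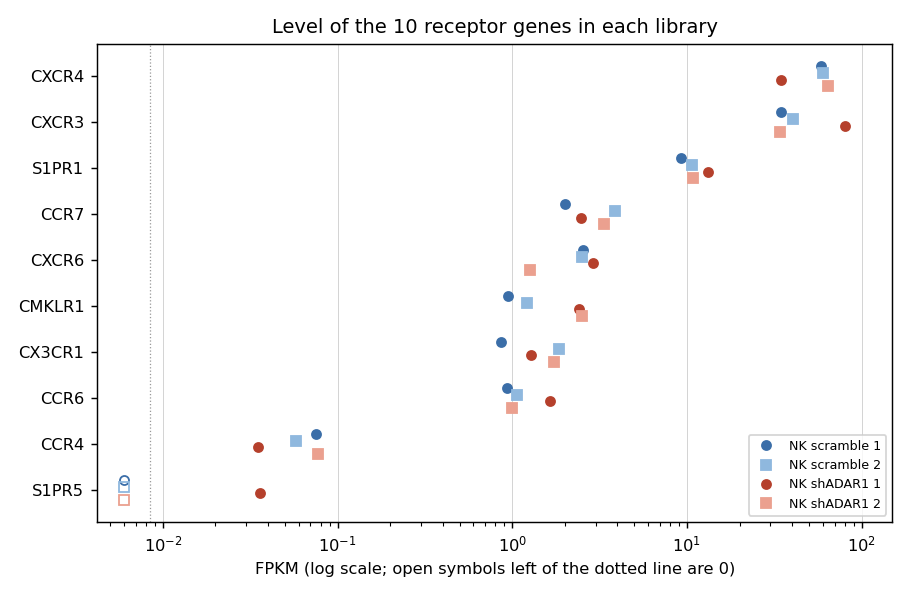
FPKM (log axis) of the 10 receptor genes, 1 symbol per library, ordered by the mean over the 4 libraries. CXCR4 and CXCR3 lie above 33 FPKM in every library, S1PR1 near 11, a group of 5 genes between 0.863 and 3.85, and CCR4 and S1PR5 below 0.1.

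CCR7, CXCR6, CMKLR1, CX3CR1 and CCR6 lay close together, between 0.863 and 3.85 FPKM. Each overlapped with its neighbor in the order, so no neighbors among these 5 differ beyond the spread of the libraries. CCR4, the receptor for CCL17 and CCL22, had only 9, 7, 4 and 9 estimated counts in NK scramble replicates 1 and 2 and NK shADAR1 replicates 1 and 2. S1PR5 had 3 counts in NK shADAR1 replicate 1 and 0 in the other libraries, where a count of 0 allows a level of up to 0.0751 to 0.0803 CPM (3 counts, counting error only). Both genes were below the count filter and were not tested, so no fold change is given for them.

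The groups were compared to ask whether ADAR1 knockdown altered the transcripts of homing receptors. CMKLR1 was higher in both NK shADAR1 libraries, 1.84-fold by the fit, but it did not pass after adjustment over all genes. S1PR1 was also above both control libraries in both knockdown libraries, by 1.21-fold. The other receptors tested, CXCR3, CXCR4, CXCR6, CCR6, CCR7 and CX3CR1, differed more between the 2 knockdown libraries than between the groups. Of the 8 receptors tested, 5 had a positive and 3 a negative log2 fold change, and the median was 0.21 against 0.00 over all 11810 genes tested. By edgeR's quasi-likelihood test, none of the 8 was called, which needed an adjusted p under 0.05 and at least 1.5-fold in either direction, and the share of all genes called was 0%. At an unadjusted p under 0.05 there was 1 of 8, CMKLR1, where 2.48% of all genes passed, 1.7% with the knockdown above the control and 0.779% with it below. CMKLR1 was also the 1 of 8 that differed by at least 1.5-fold, as 6.78% of all genes did, and 1.8% of all genes met both of these conditions. DESeq2 also gave 0 calls and the same single gene unadjusted. The groups did not overlap in 2 of the 8, CMKLR1 and S1PR1, and in 26% of all genes, with 13.3% of all genes higher in this way, as these 2 were. With 1 library left out, the median of the 8 ranged from -0.09 (NK scramble replicate 1 left out) to 0.59 (NK scramble replicate 2 left out), and 3 of the 8 had an unadjusted p under 0.05 without NK shADAR1 replicate 2 (edgeR), namely CMKLR1, CXCR3 and CXCR4. In bulk RNA, fewer cells with a receptor and less RNA per cell cannot be told apart.

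**Figure D2:**
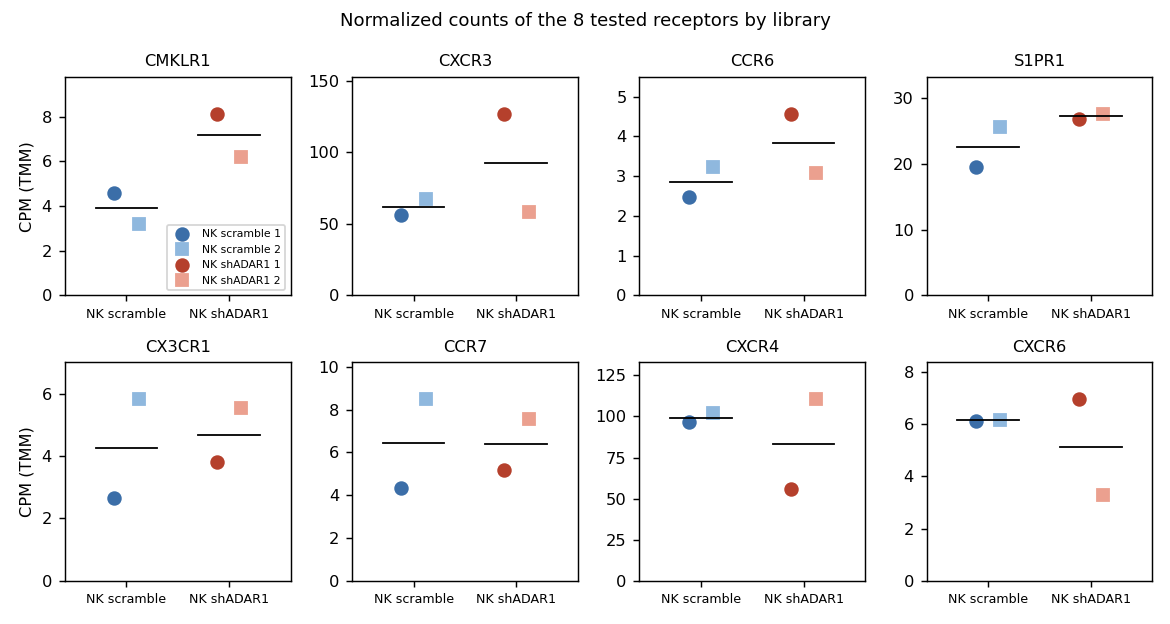
CPM of each of the 8 tested receptors in the 4 libraries, with a line at the group mean and axes that start at 0. CMKLR1 and S1PR1 are the 2 genes in which both NK shADAR1 libraries lie above both NK scramble libraries. In the other genes the NK shADAR1 libraries lie further apart than the group means.

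CMKLR1 encodes the chemerin receptor through which NK cells and dendritic cells move to chemerin. The study counts it among the migration genes it picked from these libraries, so its higher level here is not independent evidence. With DESeq2 at the same fold and adjusted p thresholds, the paper reports differentially expressed genes from these libraries and shows CMKLR1 as increased. Here edgeR's main test and DESeq2 each called 0 genes, and why the results differ was not tested. CMKLR1 lies on chr12:108288044-108339341, minus strand (GRCh38, GENCODE release 29, as for all genes below). Estimated counts were 183 and 126 in the control libraries, against 320 and 232 in the knockdown libraries. In CPM these were 4.58 and 3.21 against 8.14 and 6.21, a mean of 3.89 ± 0.973 in NK scramble and 7.17 ± 1.36 in NK shADAR1 cells (SD, n = 2). Both knockdown libraries were above both controls, and replicate 1 was above replicate 2 in each group. The log2 fold change was 0.88 (standard error 0.32), with an unadjusted p of 0.0193 and an adjusted p of 1.00 from edgeR. Because the groups did not overlap, it stayed positive each time 1 library was left out, between 0.64 and 1.16. It was 0.64 (unadjusted p = 0.116) without NK scramble replicate 2 and 0.67 (unadjusted p = 0.119) without NK shADAR1 replicate 1 (edgeR), fits in which 1 group is a single library. Among markers of other cells, the summed level of 5 myeloid genes was 0.418 and 0.433 FPKM in the controls and 0.698 and 0.672 FPKM in the knockdown, and CSF1R made up most of it. Of the 5, CSF1R alone passed the count filter, at a log2 fold change of 0.62 (standard error 0.41, edgeR adjusted p = 1.00). CD14, LYZ, CD163 and MPO had at most 5 counts in any library, with LYZ and MPO at 0 or 1. The T cell gene CD3D also did not overlap between groups, at 0.429 and 0.441 FPKM in the controls and 0.958 and 0.620 FPKM in the knockdown. Its log2 fold change was 0.96 (standard error 0.62, edgeR adjusted p = 1.00). These CD3D values rest on 10 and 11 counts in the controls and 24 and 16 in the knockdown. The far more abundant CD3E, the other T cell marker tested, overlapped between groups, at a log2 fold change of 0.18 (standard error 0.23). The part of these markers in the CMKLR1 value was not tested.

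In the deposited FPKM of CMKLR1 the groups also did not overlap. FPKM was 0.946 and 1.21 in the control libraries and 2.42 and 2.52 in the knockdown libraries, and the knockdown libraries were nearly equal. On the log2(FPKM + 0.1) scale the difference was 1.13 (limma, unadjusted p = 0.00538, adjusted p = 1.00), and on the log2(FPKM + 1) scale it was 0.74 (limma, unadjusted p = 0.00260, adjusted p = 1.00). Count, FPKM and depth together give the transcript length that the authors' estimate used. For CMKLR1 this implied length was 4894 and 2604 bases in the control libraries and 3486 and 2393 bases in the knockdown libraries. It was longer in replicate 1 than in replicate 2 of both groups. GENCODE lists 6 CMKLR1 transcripts, 2 of them of 5110 and 5283 bases, 2 of 1890 and 1893 bases and 2 shorter. For CXCR4 the implied length hardly moved, from 1669 to 1673 bases. Values per transcript were not used here, so which CMKLR1 transcripts moved was not tested.

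**Figure D3:**
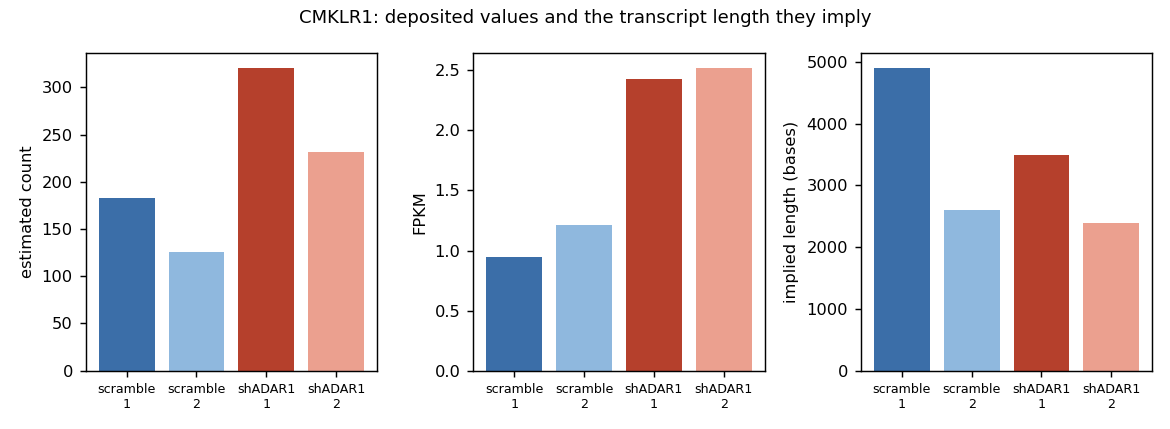
Estimated count, FPKM and implied transcript length in bases of CMKLR1, 1 bar per library, all axes from 0. The knockdown libraries are nearly equal in FPKM but not in counts, and the implied length is longer in replicate 1 of each group, at 4894 bases in NK scramble and 3486 bases in NK shADAR1.

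By the distance between centred log2 CPM profiles over the 4 libraries, the tested genes nearest to CMKLR1 were CNTRL, DTHD1 and TAS2R20, at 0.11, 0.14 and 0.15, where the median gene lay at 1.06. The centrosomal protein gene CNTRL went from 81.4 and 56.2 CPM in NK scramble to 143 and 100.1 CPM in NK shADAR1 replicates 1 and 2. The bitter taste receptor gene TAS2R20 had no more than 23 counts in any library. Over 4 libraries such likeness is a description only.

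Of the S1P receptors described here, S1PR1 was well above the count filter and S1PR5 was not. S1PR1 is the main exit receptor of lymphocytes, and the activation marker CD69 is known to bind it and remove it from the cell surface. The gene lies on chr1:101236865-101243713, plus strand. Its values were 19.4 and 25.6 CPM in the control libraries and 26.8 and 27.6 CPM in the knockdown libraries. The knockdown libraries were close together and just above NK scramble replicate 2, while NK scramble replicate 1 was lower. The log2 fold change was 0.27 (standard error 0.22, edgeR adjusted p = 1.00), and it was 0.083 without NK scramble replicate 1. The implied length of S1PR1 also differed by replicate number, at 2124 and 2117 bases in replicate 1 and 2362 and 2463 bases in replicate 2 of NK scramble and NK shADAR1. S1PR5 lies on chr19:10512742-10517931, minus strand, and was at or near 0 as given above, although it is known as the S1P receptor of mature blood NK cells.

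CXCR3 (chrX:71615916-71618517, minus strand) draws effector NK and T cells into inflamed tissue. It had 56.2 and 67.6 CPM in the control libraries and 127 and 57.9 CPM in the knockdown libraries. Replicate 1 of the knockdown stood alone above the other libraries, and replicate 2 lay between the controls. The log2 fold change was 0.58 (standard error 0.32, edgeR adjusted p = 1.00). Without NK shADAR1 replicate 1 it turned to -0.10, and without replicate 2 it was 1.03. The gap between the knockdown libraries was 1.13 on the log2 scale, and 1.57% of tested genes had a larger one. The summed level of 3 B cell markers was also highest in NK shADAR1 replicate 1, though in the controls it was lower in replicate 2, where CXCR3 was higher. It was 4.05, 2.98, 7.70 and 2.96 FPKM in NK scramble replicates 1 and 2 and NK shADAR1 replicates 1 and 2. Of these markers PAX5 and CD79A were detected and MS4A1 was at 0. Their part in the CXCR3 value was not tested.

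CXCR4 (chr2:136114349-136118165, minus strand) holds lymphocytes and stem cells in bone marrow. It had 96.6 and 102 CPM in the control libraries and 55.7 and 111 CPM in the knockdown libraries. Only NK shADAR1 replicate 1 was apart from the other libraries, here on the low side. The log2 fold change was -0.26 (standard error 0.29, edgeR adjusted p = 1.00), which turned to 0.16 without that library and was -0.84 without NK shADAR1 replicate 2. In FPKM, CXCR3 was 0.590 and 0.679 times CXCR4 in the NK scramble libraries, 2.33 times in NK shADAR1 replicate 1 and 0.529 times in replicate 2. So the order of the 2 most abundant members was inverted in 1 library and alike in the other 3.

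CXCR6 (chr3:45940933-45948353, plus strand), the receptor for CXCL16 that is known from liver-resident NK cells, also split the knockdown group. It had 6.14 and 6.16 CPM in the control libraries and 6.97 and 3.29 CPM in the knockdown libraries. The controls were nearly identical, replicate 1 of the knockdown was a little above them and replicate 2 far below. The log2 fold change was -0.26 (standard error 0.36, edgeR adjusted p = 1.00), -0.90 without NK shADAR1 replicate 1 and 0.18 without replicate 2. CXCR6 overlaps FYCO1, which is on the other strand, and the strand setting of the counting is not given in the sources used here, so reads of the pair may not be separated. CCR6 likewise overlaps annotated noncoding genes, and CCR1 overlaps CCR3.

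CCR7 (chr17:40553769-40565472, minus strand), the lymph node entry receptor for CCL19 and CCL21, had 4.33 and 8.50 CPM in the control libraries and 5.19 and 7.55 CPM in the knockdown libraries. CX3CR1 (chr3:39263494-39281735, minus strand), the fractalkine receptor of mature cytotoxic NK cells, had 2.65 and 5.83 CPM in the control libraries and 3.81 and 5.54 CPM in the knockdown libraries. In both genes replicate 2 was the higher library of each group, and the knockdown values lay inside the range of the controls. The gap between the control libraries of CCR7 was exceeded by 2.72% of tested genes, and that of CX3CR1 by 1.80%. The log2 fold changes were -0.01 (standard error 0.36) for CCR7 and 0.14 (standard error 0.41) for CX3CR1, each with an adjusted p of 1.00 from edgeR. With NK scramble replicate 1 left out these became -0.42 and -0.32, and with replicate 2 left out 0.55 and 0.81.

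CCR6 (chr6:167111807-167139696, plus strand), the receptor for CCL20 on mucosal lymphocytes, had 2.48 and 3.23 CPM in the control libraries and 4.58 and 3.08 CPM in the knockdown libraries. NK shADAR1 replicate 1 was the highest library and replicate 2 fell between the controls. On the log2 scale the fold change was 0.42 (standard error 0.37, edgeR adjusted p = 1.00), and 0.11 without NK shADAR1 replicate 1. CCR4 lies on chr3:32951574-32956349, plus strand.

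Direction held in all 4 fits with 1 library left out for CMKLR1, CCR6 and S1PR1, and changed in at least 1 of them for the other 5 receptors tested. For CMKLR1 and S1PR1 the held direction follows from groups that do not overlap, as in 26% of all tested genes, and adds nothing to it. In 3 of the 8 receptors the gap between the NK shADAR1 libraries was among the widest 5% of all tested genes, and in 2 of the 8 the gap between the NK scramble libraries was. Replicates 1 and 2 differed in the same direction in both groups for CMKLR1, CCR7, CX3CR1, CXCR4 and S1PR1, which is 5 of the 8. The share over all genes is not given here. The gap of CXCR4 in the controls and that of S1PR1 in the knockdown were small, exceeded by 82.7% and 90.9% of tested genes.

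**Figure D4:**
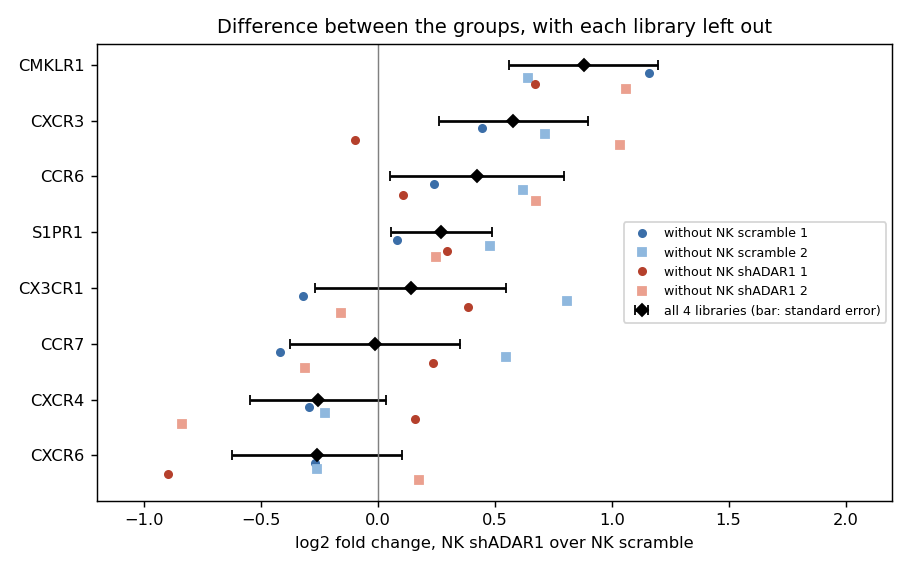
Log2 fold change of the 8 tested receptors, NK shADAR1 over NK scramble, from all 4 libraries (diamonds with standard error bars) and with each library left out (colored symbols). CMKLR1, CCR6 and S1PR1 stay right of 0 throughout, whereas CXCR3 moves to -0.10 and CXCR4 to 0.16 when NK shADAR1 replicate 1 is left out. For CMKLR1 and S1PR1, staying right of 0 follows from groups that do not overlap.

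Another 19 receptors of these families show what else the cells could sense. Of them 11 were tested, 5 with a positive and 6 with a negative log2 fold change, with a median of -0.05, and 0 had an unadjusted p under 0.05 (edgeR). CCR1, the receptor for CCL3 and CCL5, had the highest mean of these 29 receptors, with 77.2 and 79.2 FPKM in the control libraries and 66.8 and 49.9 FPKM in the knockdown libraries. Both knockdown libraries were below both controls, with a log2 fold change of -0.44 (standard error 0.20, unadjusted p = 0.0518, adjusted p = 1.00, edgeR). Its range overlapped with that of CXCR4. S1PR4, an S1P receptor of lymphoid and myeloid cells, had a higher mean FPKM than S1PR1, at 23.8 to 41.8, with a log2 fold change of -0.16. XCR1, the receptor for XCL1, had 8.04 to 10.1 FPKM and a log2 fold change of -0.14 (standard error 0.22).

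Named after their values were seen, S1PR2 and CXCR1 had the widest fitted differences among the 11 of these 19 that were tested. S1PR2, an S1P receptor that inhibits migration, had 206, 90, 83.6 and 77 estimated counts in NK scramble replicates 1 and 2 and NK shADAR1 replicates 1 and 2. The difference of -0.83 on the log2 scale (standard error 0.44, edgeR adjusted p = 1.00) became -0.13 when NK scramble replicate 1 was left out. S1PR2 overlaps DNMT1 on the same strand, so reads of the pair may not be separated. CXCR1, an interleukin 8 receptor, had 16, 7, 19 and 39 counts in the same order and a log2 fold change of 1.39 (standard error 0.67, edgeR adjusted p = 1.00). This ranged from 0.73 without NK shADAR1 replicate 2 to 2.08 without NK scramble replicate 1. The second chemerin receptor, CMKLR2, had at most 2 counts in any library.

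**Figure D5:**
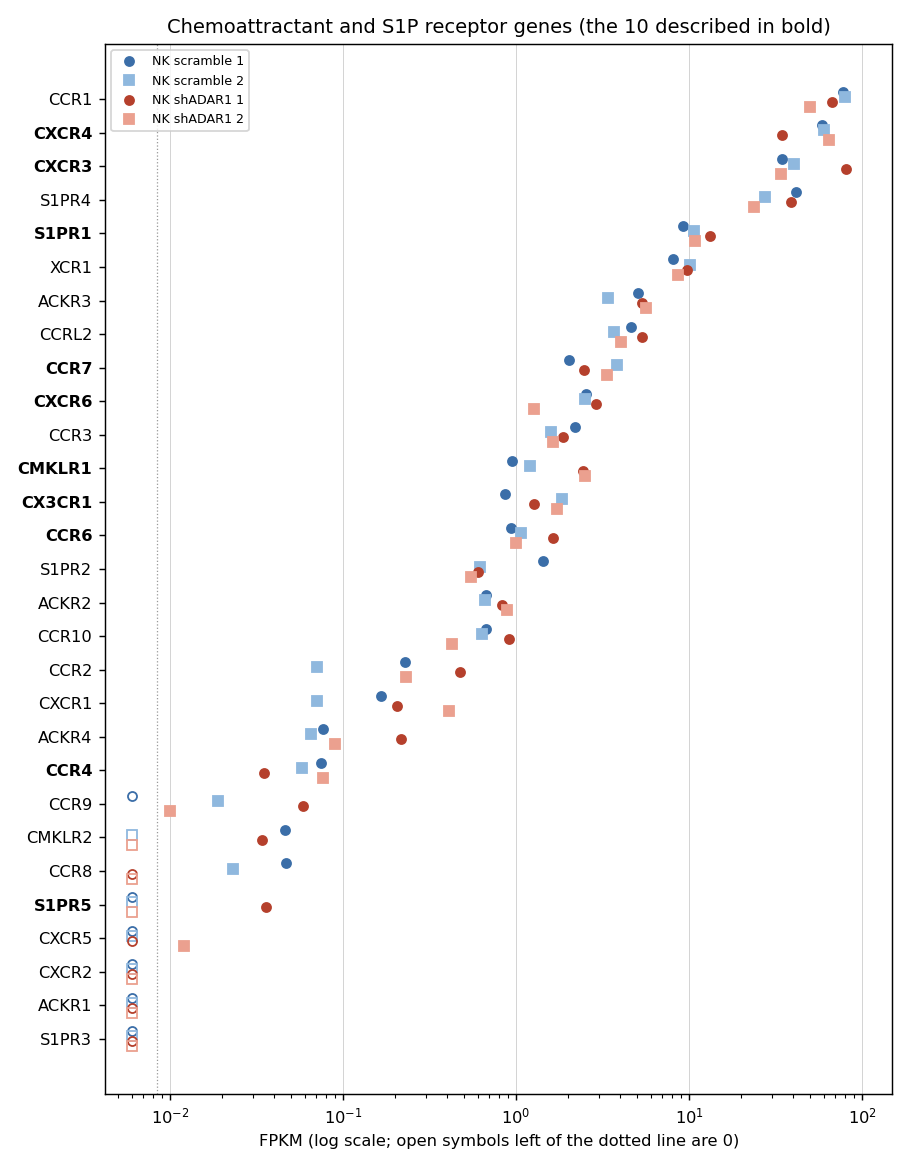
FPKM (log axis) of 29 chemoattractant and S1P receptor genes in the 4 libraries, ordered by mean, with the 10 described genes in bold and values of 0 as open symbols at the left. CCR1, CXCR4, CXCR3 and S1PR4 lead, and 3 genes are at 0 in all libraries.

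Transcripts of the chemokine and chemerin ligands of the 10 receptors described here were at or near 0 in these cells. Of 12 ligand genes, which include the chemerin gene RARRES2, 0 passed the count filter, 6 had 0 counts in all libraries and none had more than 6 counts. The ligands CCL3, CCL5 and XCL1 of CCR1 and XCR1 are not among these 12. For S1P, 6 of 10 genes of synthesis, export and breakdown were tested. Of these 3 had a positive and 3 a negative log2 fold change, all between -0.30 and 0.21, and 0 had an unadjusted p under 0.05 (edgeR). The most abundant were the kinase gene SPHK2, the lyase gene SGPL1 and the phosphatase gene SGPP1, at 0.07, -0.05 and -0.21 on the log2 fold scale.

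Below the receptors, 24 of 28 genes for G proteins and their effectors were tested, 10 with a positive and 14 with a negative log2 fold change, and 0 had an unadjusted p under 0.05 (edgeR). Their log2 fold changes ran from -0.31 to 0.28. The GTPase genes RAC2 and RHOA and the G protein gene GNB2, the most abundant of them, were at 0.05, -0.08 and -0.13. Among 13 tested genes for receptor kinases, arrestins and RGS proteins, which end receptor signals, 1 had an unadjusted p under 0.05. This was RGS16, which speeds GTP hydrolysis by inhibitory G proteins, with 26.8 and 36.1 FPKM in the control libraries and 11.4 and 21.9 FPKM in the knockdown libraries. Both knockdown libraries were below both controls. Its log2 fold change was -0.91 (standard error 0.32, unadjusted p = 0.0157, adjusted p = 1.00, edgeR), and it was -0.48 without NK shADAR1 replicate 1 and -1.53 without replicate 2. Without NK scramble replicate 1 it was -1.13 and the adjusted p was 0.0285 (edgeR), a fit with a single control library. With the replicate number as a block the adjusted p was 0.0510, without NK shADAR1 replicate 2 it was 0.216, and the remaining settings gave 0.828 to 1.00 (edgeR, DESeq2 or limma).

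Of 9 factors and partners known to control the receptors, 8 were tested, 4 with a positive and 4 with a negative log2 fold change, and 0 had an unadjusted p under 0.05 (edgeR). TBX21, which encodes T-bet and is known to drive CXCR3, had a log2 fold change of -0.17. GATA3, a driver of CCR4, had 0.03, and HIF1A, which raises CXCR4 in low oxygen, had 0.27. For S1PR1, 2 genes were named after their values were seen. KLF2 had 10.3 and 8.87 FPKM in the control libraries and 12.8 and 5.18 FPKM in the knockdown libraries. The groups overlapped, with a log2 fold change of -0.34 (standard error 0.39) for KLF2. It ranged from -1.08 without NK shADAR1 replicate 1 to 0.15 without NK scramble replicate 1, so its direction did not hold. CD69 had 4.55 and 4.20 FPKM in the control libraries and 4.58 and 5.72 FPKM in the knockdown libraries. Its groups overlapped in CPM, with a log2 fold change of 0.22 (standard error 0.27).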

How the data were processed

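Poly(A)-selected RNA of 4 NK-92 libraries was sequenced by the authors on an Illumina NovaSeq. Per the labels, reads passed through fastp 0.18.0. The aligner, counting program, genome build and strand setting are not given in the sources used here. The authors deposited estimated counts, not scaled for depth, and FPKM, scaled by transcript length and mapped fragments. Depth was 37881704 to 39960491 counts per library, with 2 libraries per group. Symbols were matched by Ensembl identifier for 20301 of 20323 genes.

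Counts were rounded. The main test was the quasi-likelihood test of edgeR 4.0.16 (R 4.3.3) without covariates, after its filterByExpr function had dropped low genes at a minimum count of 10 and TMM factors had been applied, with Benjamini-Hochberg adjustment over 11810 genes. The standard error is the log2 fold change divided by the square root of F. CPM use TMM library sizes. FPKM serve for levels and for limma 3.58.1. Library gaps are on log2(CPM + 0.5), and profile distances on log2 CPM with a prior count of 2. DESeq2 1.42.0 was an alternative. Scripts were tested on simulated data.

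The members and gene lists were chosen with earlier results of these data known. The genes named are the 10 receptors, ADAR, the 3 genes nearest to CMKLR1 and, from each other list, those with an unadjusted p under 0.05 or else the 3 most abundant, beside those said to be named after their values were seen. Markers that were abundant or near 0 are named for the check of cell type. Some genes of the receptor and marker lists are not reported here.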

Additional observations from a re-analysis of the deposited data

How the results depend on the processing

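The alternatives were DESeq2, RLE or upper quartile scaling, every gene with a count, a mean of at least 50 counts, limma on log2(FPKM + 0.1) or log2(FPKM + 1), the replicate number as a block, each library left out in turn, and no fold change threshold. Under all of them 0 receptors were called. DESeq2 and every gene with a count tested all 10, and the other settings tested 8. The number with an unadjusted p under 0.05 was 2 when every gene with a count was tested with edgeR (CMKLR1 and CXCR3), and ranged from 1 to 3 with 1 library left out. The median log2 fold change of the 8 receptors ranged from -0.092 to 0.59 with 1 library left out. The cause of these changes was not tested.

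Among the single genes, 280 values kept their direction and side of the threshold and 12 turned under settings with all 4 libraries, all of them close to 0. CCR7 turned to 0.0021 with upper quartile scaling, 0.048 and 0.027 on log2(FPKM + 0.1) and log2(FPKM + 1), and 0.038 with the replicate block. GZMB turned to 0.0040 with upper quartile scaling, 0.0016 with a mean of at least 50 counts, and 0.0025 on both FPKM scales. NKG7 turned to -0.0038 with DESeq2 and -0.0036 with every gene, and XCR1 to 0.035 and 0.031 on these FPKM scales.

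With 1 library left out, log2 fold changes ranged from -0.42 to 0.55 for CCR7, -0.32 to 0.81 for CX3CR1, -0.10 to 1.03 for CXCR3, -0.84 to 0.16 for CXCR4 and -0.90 to 0.18 for CXCR6. Among other receptors they ranged from -0.49 to 0.15 for S1PR4 and -0.39 to 0.065 for XCR1. For genes around the receptors the ranges were -0.082 to 0.14 for GATA3, -0.40 to 0.18 for GNB2, -1.08 to 0.15 for KLF2, -0.22 to 0.053 for RHOA, -0.11 to 0.011 for SGPL1 and -0.18 to 0.33 for SPHK2. For markers they were -0.033 to 0.37 for CD3E, -0.019 to 1.51 for CD79A, -0.0036 to 0.23 for GNLY, -0.087 to 0.066 for GZMB, -0.15 to 0.16 for NKG7 and -0.23 to 0.96 for PAX5.

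The labels give both groups replicates 1 and 2 but do not say that equal numbers share a culture or day. Deviations of same-numbered libraries from their group means correlated at 0.308 over 11810 genes. With 2 libraries per group, swapping the numbers in 1 group would only turn the sign of this value. Whether same-numbered libraries share anything was not tested. Same-numbered libraries of different groups correlated at 0.985 and 0.989, and libraries of the same group at 0.981 and 0.981. Libraries that differed in both group and number correlated at 0.982 and 0.981. With only 2 pairs and no such label, the block was kept as an alternative. With the replicate block, 13 genes of all tested were called by edgeR against 0 without it, none of them among the 10 receptors, and CMKLR1 had a log2 fold change of 0.89 (adjusted p = 0.357). Over all genes, 47 and 2 were called without NK scramble replicates 1 and 2, and 16 and 1 without NK shADAR1 replicates 1 and 2, while the other settings gave 0. Fits without 1 library take their spread from the other group alone. What limits the number of calls was not tested. The counts of CCR4 and S1PR5 were too low for the filter.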

Other observations

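Of the 29 receptor genes described, 12 lie on chromosome 3 (GRCh38, GENCODE release 29), among them the members CCR4, CX3CR1 and CXCR6. Near CXCR6, the mean FPKM was 2.30 for CXCR6 itself, 0.022 for CCR9 and 9.15 for XCR1, and further along the chromosome it was 1.83 for CCR3 and 68.3 for CCR1. The means of these genes ran from 0.022 to 68.3 FPKM. The libraries of CXCR6 ran from 1.27 to 2.91 FPKM, a range that holds the CCR3 mean.

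As a share of the summed FPKM of the 29 receptors, CCR1 took 30.7% and 31.8% in control replicates 1 and 2, against 24.7% and 23.2% in knockdown replicates 1 and 2. CXCR4 took 23.2% and 24.0% in NK scramble, 12.8% in NK shADAR1 replicate 1 and 29.8% in replicate 2. CXCR3 took 13.7% and 16.3% in NK scramble, 29.8% in NK shADAR1 replicate 1 and 15.8% in replicate 2. These shares are of transcripts and say nothing of receptor on the cell surface.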
